A study of Mus musculus with 12 samples.

Results

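The response of granulosa cells of Inha-/- mice to an ovulatory dose of hCG was measured on 6 of the 12 arrays of the study. It was read as the difference between the 3 knockout arrays made after PMSG and hCG and the 3 made after PMSG alone, over the 18193 genes that have a probe set naming a single gene. The arrays were one-colour Affymetrix mouse arrays of 45101 probe sets, 34945 of which name 1 gene and are not controls. All mice, knockout and wild type, were of the strain C57BL/6J;129S5/SvEvBrd, were 21 days old, and received 5 IU of PMSG, an FSH-like gonadotropin, for 44 to 46 hours. The hCG groups then received 5 IU of hCG, which acts on the LH receptor, for 6 hours. Granulosa cells were taken by puncturing antral follicles and their total RNA was extracted at once. The 6 wild-type arrays, 3 after PMSG and 3 after hCG, serve as the comparison. The series' design text calls the samples of a group independent, and the number of mice behind each is not stated.

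Inha encodes the alpha subunit shared by the inhibins, which oppose activin signalling and restrain FSH secretion. Mice without it are known to have raised activin activity and to develop gonadal tumours of granulosa or Sertoli type. Whether tumours were present in these ovaries is not stated. In preovulatory granulosa cells the LH surge raises cAMP and releases EGF-like ligands. The EGF receptor and ERK then switch on a programme of transcription factors, matrix genes, prostaglandin synthesis, proteases and steroid synthesis that opens the follicle and turns granulosa cells into luteal cells.

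The deposited values are log2 values in which each probe set is centred on its own median over the 12 arrays. They therefore show differences between arrays but no level, and the presence or absence of a gene or cell type cannot be read from them. Where 1 of the groups is near background, a difference does not give the ratio of levels. Each gene was read at its probe set with the largest standard deviation (SD) over the 12 arrays. Changes are given with their standard error (SE, 3 arrays a group). The p values are those of limma, adjusted by the Benjamini-Hochberg method over all 34945 probe sets. Each SE rests on 1 moderated variance per probe set, pooled over the 12 arrays, so both genotypes share it. It is therefore not the spread of the knockout arrays alone. The median SD over probe sets was 0.195 within the knockout PMSG group and 0.123 within the knockout hCG group. For the wild-type groups it was 0.105 and 0.137. A gene was called changed at an adjusted p under 0.05. Because the RNA is that of bulk cells, fewer cells of a type and less RNA per cell cannot be told apart.

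The labels were checked first on the deleted gene. Inha read -7.38, -5.40 and -7.25 on the knockout PMSG arrays and -7.35, -7.35 and -7.40 on the knockout hCG arrays, against means of 5.71 and 5.45 in wild type after PMSG and hCG. All 6 knockout arrays lay far below wild type, and hCG gave a difference of -0.69 ± 0.426 (SE) in the knockout with a limma adjusted p of 0.763. Which part of the gene this probe set reads, and which part was deleted, is not stated. Replicates correlated less well in the knockout (r of 0.205 to 0.358 over the probe sets after PMSG and 0.388 to 0.722 after hCG) than in wild type (0.514 to 0.74 and 0.683 to 0.823). Knockout hCG replicate 1 had the lower correlations of its group (0.388 and 0.396). Knockout PMSG replicate 3 had the widest SD over probe sets of its group (0.557, against 0.473 and 0.438). By correlation PMSG replicate 1 was the least like its group (0.205 and 0.336, against 0.205 and 0.358 for replicate 3). Knockout hCG replicate 1 and PMSG replicate 3 differ from the others of their group in whether the serial number in the array name is early or late. They are called the 2 arrays of unlike serial number. Early numbers cover knockout PMSG replicates 1 and 2 and hCG replicate 1, and late numbers the other 3 knockout arrays, so the response was also taken within each of these sets.

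hCG raised 237 genes and lowered 25 in knockout granulosa cells. The genes that rose did so by a median of 2.21 on the log2 scale, and 42 of them by at least 4 units, while the genes that fell did so by a median of -0.93. The rises were led by Ptgs2, Nts, Ereg, Sult1e1, Star and Btc, and the largest fall was that of Igfbp1 at -1.99. The calls are 1.3% of all genes tested for rises and 0.137% for falls. With a change of at least 2-fold required as well, 220 rose (1.21%) and 10 fell (0.055%). At an unadjusted p under 0.05 the counts were 1080 higher and 708 lower, and the median change over all genes was -0.04. Rises made up 90.5% of the calls. After quantile normalization 277 genes rose and 70 fell, or 79.8% rises, and with each array centred on its median the share was 91.4%. When the arrays were weighted by their fit, 2068 rose and 2735 fell, so that falls outnumbered rises. In that fit the knockout PMSG group rested mostly on replicate 1, with a weight of 7.64 against 0.29 and 0.125 for replicates 2 and 3. The number of falls also moved with single arrays. It was 53 without knockout PMSG replicate 3, 41 without PMSG replicate 2, 9 without hCG replicate 2 and 16 without wild-type PMSG replicate 2, while the number of rises stayed between 162 and 279. All 237 rises and all 25 falls kept their sign within the early arrays (medians 2.15 and -0.87) and within the late arrays (2.32 and -0.88). For the sign this is no test, because the hCG and PMSG arrays of the knockout overlapped in none of these genes. Any subset of the arrays would therefore give the same sign.

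All 15 of the largest rises and all 10 falls of at least 2-fold had the PMSG and hCG arrays of the knockout fully apart, which the rule for naming them required. Over all genes 2.76% were higher and 0.671% lower by at least 2-fold without overlap, called or not.

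**Figure D1:**
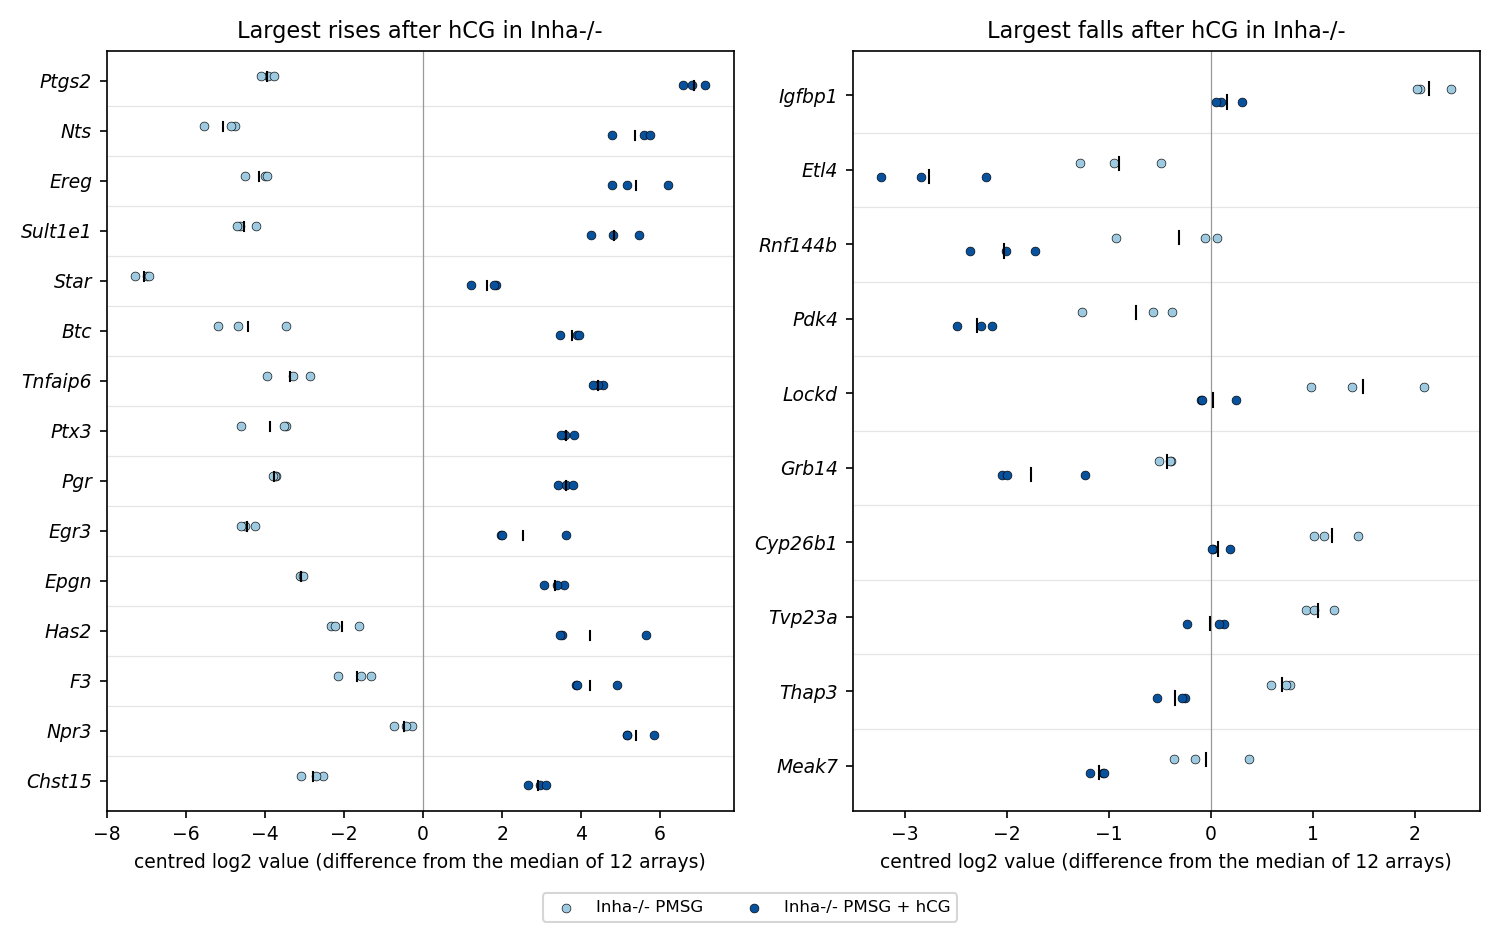
Centred log2 value (horizontal axis) of the 15 genes that rose most and the 10 that fell by at least 2-fold after hCG, on each of the 6 knockout arrays; points are arrays and bars are group means. In all 25 genes the 3 hCG arrays lie on one side of the 3 PMSG arrays, with gaps of many log2 units for the rises and of about 1 to 2 units between the means of the falls.

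Among the EGF-like ligands, which carry the LH signal from mural granulosa cells through the follicle, Ereg and Btc rose strongly. Ereg, epiregulin, read -4.01, -4.51 and -3.95 after PMSG and 6.21, 4.79 and 5.16 after hCG. The 2 groups were far apart on every array, a change of 9.54 ± 0.334 (adjusted p = 7.02e-07). Btc, betacellulin, read -5.18, -4.69 and -3.47 after PMSG and 3.47, 3.88 and 3.94 after hCG. PMSG replicate 3 was the highest of its group but still far below the hCG arrays, and the change was 8.21 ± 0.376 (adjusted p = 5.06e-06). Epgn, epigen, a further ligand of the EGF receptor that the list of EGF-like genes does not hold, rose by 6.42 ± 0.146 (adjusted p = 7.04e-08). Its 6 knockout values were -3.10, -3.12 and -3.05 against 3.56, 3.05 and 3.39, with the smallest SE of the 15 largest rises after that of Pgr. Of the 11 measured members of the list of EGF-like ligands and ERBB receptors, 2 rose and 0 fell. Over all genes 1.3% rose and 0.137% fell, the shares to set beside the counts of this list and of those below. The lists were chosen with earlier results of these data known, so their counts describe the response and do not test it. The list's median change was -0.13, against -0.04 for all genes. Egfr, the receptor of these ligands, differed by -0.13 ± 0.256 (adjusted p = 0.853). Areg, the best known ligand of this group, was not analysed here.

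Early response genes, which are switched on within minutes to hours of a stimulus, were higher after hCG throughout, although few passed the test. The list of AP-1, EGR and NR4A transcription factors also holds Ier3, which belongs to none of these families. All 16 genes measured had a change above 0, with a median of 1.91, and 3 were called: Egr3, Ier3 and Egr2. Egr3 read -4.51, -4.62 and -4.25 after PMSG and 3.61, 1.97 and 1.99 after hCG. hCG replicate 1 was the highest, the groups did not overlap, and the change was 6.98 ± 0.558 (adjusted p = 0.000264). Ier3, an early gene that modulates ERK signalling and cell survival, rose by 4.30 ± 0.314 (adjusted p = 0.000151). Egr2 rose by 3.76 ± 0.719 (adjusted p = 0.0429), but 10 of the 12 fits without 1 array lost this call, with an adjusted p of up to 0.123 without knockout PMSG replicate 3. The only arrays whose removal kept it were wild-type PMSG replicates 1 and 2. Nr4a1, an orphan nuclear receptor induced by cAMP, had 3.25 with an adjusted p of 0.0544. Junb read -1.79, -4.19 and -4.85 after PMSG and 2.32, 0.67 and -0.17 after hCG. Its groups did not overlap but spread widely, and the difference of 4.55 ± 1.12 had an adjusted p of 0.128. Egr1 likewise spread, from -3.82 to -1.05 after PMSG and from -0.30 to 1.04 after hCG (3.03 ± 0.832, adjusted p = 0.186).

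Genes that damp the ERK and cAMP pathways rose beside these activators. Of the 12 ERK feedback genes 4 rose and 0 fell, with a median of 1.20. Dusp6, a phosphatase that inactivates ERK, rose by 4.44 ± 0.496 (adjusted p = 0.00212). Spred2, Spry2 and Spred1, inhibitors of the RAS to ERK cascade, rose by 2.38, 1.84 and 1.42 (adjusted p = 0.00529, 0.0139 and 0.0236). The count fell to 2 without knockout PMSG replicate 2 and without knockout hCG replicate 3. Spry2 lost its call in these same 2 fits, and Spred1 lost it without PMSG replicate 2 or any 1 of the 3 knockout hCG arrays. Of the 14 cAMP feedback genes 4 rose and 0 fell, with a median of 0.84. Crem, whose ICER products repress cAMP-driven transcription, read -1.98, -3.26 and -2.93 after PMSG and 2.77, 2.88 and 2.66 after hCG. The hCG arrays were nearly equal and the change was 5.49 ± 0.289 (adjusted p = 1.33e-05). The phosphodiesterases Pde4b, Pde4d and Pde10a, which break down cyclic nucleotides, rose by 3.24, 3.09 and 2.58 (adjusted p = 0.000378, 0.00769 and 0.005).

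The regulators of ovulatory transcription included Pgr, the progesterone receptor, without which follicles do not rupture, which had the smallest SE of the 15 largest rises. Pgr read -3.72, -3.76 and -3.81 after PMSG and 3.40, 3.62 and 3.80 after hCG. Each group lay close together, and the change was 7.37 ± 0.131 (adjusted p = 1.47e-08). Runx1, a factor induced by LH in granulosa cells, read -2.10, -1.64 and -3.56 after PMSG and 1.16, 1.74 and 1.86 after hCG. The groups did not overlap and it rose by 4.02 ± 0.498 (adjusted p = 0.00382). Bhlhe40, a repressor of the basic helix-loop-helix family, rose by 3.03 ± 0.402 (adjusted p = 0.00583). Cited4, a coactivator of the CITED family, rose by 1.61 ± 0.274 (adjusted p = 0.0243), a call that 6 of the 12 fits without 1 array lost. These left out any 1 knockout array other than hCG replicate 2, or wild-type PMSG replicate 2. Pparg, a nuclear receptor that is high in granulosa cells before the surge, was the only member that fell. It read 0.46, -0.06 and 0.07 after PMSG and -0.61, -0.77 and -0.67 after hCG. The groups did not overlap and the change was -0.84 ± 0.14 (adjusted p = 0.0218), lost without knockout hCG replicate 2 (0.0943) or replicate 3. In all, 4 of the 15 measured regulators rose and 1 fell, with a median of 1.07.

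Genes placed downstream of the progesterone receptor in earlier work rose in part. Of 13 measured, 5 rose and 0 fell, with a median of 1.75, and the count was 8 without knockout hCG replicate 1. Sult1e1, the sulfotransferase that inactivates oestrogens, read -4.63, -4.71 and -4.24 after PMSG and 4.24, 4.79 and 5.46 after hCG. No array of one group came near the other and the rise was 9.35 ± 0.254 (adjusted p = 1.53e-07). Prkg2, a cGMP-dependent protein kinase, read -1.53, -1.78 and -1.18 after PMSG and 1.57, 1.18 and 1.89 after hCG. It rose by 3.04 ± 0.208 (adjusted p = 9.87e-05). Il6, the cytokine interleukin 6, read -1.46, -1.59 and -1.30 after PMSG and 1.30, 3.14 and 1.69 after hCG, with replicate 2 the highest, and rose by 3.50 ± 0.394 (adjusted p = 0.00218). Mt2, a metallothionein, rose by 3.66 ± 0.436 (adjusted p = 0.00297). Snap25, a protein of vesicle fusion, read -0.42, -0.51 and -0.27 after PMSG and 0.27, 1.75 and 1.64 after hCG. Replicate 1 of the hCG arrays was low, and the difference of 1.62 ± 0.333 had an adjusted p of 0.0604. Adcyap1, the peptide PACAP, showed the same array apart from the others: 0.63 against 5.23 and 3.35 after hCG, with -0.76 to -0.69 after PMSG (3.78 ± 0.891, adjusted p = 0.109).

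The matrix that cumulus cells lay down around the oocyte at ovulation is made of hyaluronan and proteins that crosslink it. Of the 13 genes listed for it, 4 rose and 0 fell, with a median of 1.28. Ptgs2, the inducible cyclooxygenase and the source of ovulatory prostaglandin E2, gave the largest change of the whole response. It read -3.93, -4.11 and -3.78 after PMSG and 7.14, 6.58 and 6.81 after hCG. The groups lay over 10 units apart, a rise of 10.78 ± 0.264 (adjusted p = 9.44e-08). Has2, hyaluronan synthase, read -1.61, -2.33 and -2.23 after PMSG and 5.65, 3.53 and 3.47 after hCG. Replicate 1 of the hCG arrays was the highest by about 2 units, and the rise was 6.27 ± 0.548 (adjusted p = 0.000436). Tnfaip6, which transfers heavy chains onto hyaluronan, read -3.28, -3.94 and -2.85 after PMSG and 4.56, 4.44 and 4.30 after hCG, a rise of 7.79 ± 0.276 (adjusted p = 7.14e-07). Ptx3, pentraxin 3, read -3.47, -4.62 and -3.52 after PMSG and 3.82, 3.58 and 3.48 after hCG. It rose by 7.50 ± 0.356 (adjusted p = 6.3e-06), although another probe set of Ptx3 gave a change of -0.08. In wild type that probe set was near 0 as well, at 0.04. Vcan, the proteoglycan versican, ranged from -0.88 to -0.03 after PMSG and from 0.03 to 2.27 after hCG (1.80 ± 0.534, adjusted p = 0.244).

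Prostaglandin genes were called at the synthase and at receptors. Of 13 measured, 3 rose and 0 fell, and the median of 0.06 lay close to that of all genes. Beside Ptgs2, Ptger4, the EP4 receptor of prostaglandin E2, read -0.91, -0.88 and -0.90 after PMSG and 4.89, 3.09 and 3.20 after hCG. The PMSG arrays were almost equal and the rise was 4.63 ± 0.507 (adjusted p = 0.00192). Ptgfr, the receptor of prostaglandin F2 alpha, read -3.06, -2.44 and -2.83 after PMSG and 1.35, 0.00 and 0.67 after hCG. The groups did not overlap, and the rise of 3.45 ± 0.599 (adjusted p = 0.0263) lost its call in 7 of the 12 fits without 1 array. Those fits left out any 1 knockout array other than hCG replicate 2, wild-type PMSG replicate 2 or wild-type hCG replicate 1.

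Proteases that remodel the follicle wall rose through a single family. Of 16 proteases and inhibitors, 3 rose and 0 fell, with a median of 0.69, and all 3 are ADAMTS metalloproteases, which cleave matrix proteoglycans. Adamts9 rose by 3.52 ± 0.455 (adjusted p = 0.0052) and Adamts4 by 3.11 ± 0.348 (adjusted p = 0.00212). Adamts1 read -1.18, -1.94 and -1.37 after PMSG and 0.49, 0.41 and -0.13 after hCG. The groups did not overlap and it rose by 1.75 ± 0.242 (adjusted p = 0.00767). Timp1, an inhibitor of matrix metalloproteases, had 2.34 with an adjusted p of 0.0512.

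Of 12 progesterone and luteal genes 4 rose and 0 fell, with a median of 0.98. Star, which brings cholesterol to the inner mitochondrial membrane and sets the pace of steroid synthesis, read -6.98, -7.29 and -6.93 after PMSG and 1.21, 1.84 and 1.81 after hCG. The groups were over 8 units apart and it rose by 8.68 ± 0.457 (adjusted p = 1.33e-05). Fdx1, the ferredoxin that passes electrons to the side-chain cleavage enzyme, read -3.07, -3.31 and -3.09 after PMSG and 0.24, 0.29 and 0.15 after hCG, a rise of 3.39 ± 0.251 (adjusted p = 0.000167). Cyp11a1, that enzyme itself, read -1.99, -2.71 and -2.25 after PMSG and -1.04, -0.56 and -1.06 after hCG. It rose by 1.43 ± 0.251 (adjusted p = 0.0277), while 2 other probe sets of the gene gave -0.26 and -0.07. The call was lost without wild-type PMSG replicate 2 or any 1 knockout array other than PMSG replicate 1, with an adjusted p of up to 0.112. The fourth of these genes was Ptgfr. The count was 2 without wild-type PMSG replicate 2, knockout PMSG replicate 2 or 3, or knockout hCG replicate 3. After PMSG all 4 genes had a lower mean in the knockout than in wild type. The means were -7.07 against -2.47 for Star, -3.16 against -0.81 for Fdx1, -2.31 against 0.92 for Cyp11a1 and -2.78 against -0.16 for Ptgfr. The knockout hCG mean of Cyp11a1, -0.88, stayed below its wild-type PMSG mean.

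Genes of cholesterol supply were mostly not called. All 14 genes of cholesterol synthesis and uptake had a change above 0, with a median of 0.48, but only Cyp51, a demethylase of sterol synthesis, was called (1.05 ± 0.203, adjusted p = 0.0452). Of the 12 fits without 1 array, 10 lost it, and in the one without knockout hCG replicate 2 its adjusted p was 0.179. Only wild-type PMSG replicates 1 and 2 could be left out with the call kept. Hmgcs1, of the same pathway, had 1.47 ± 0.32 with an adjusted p of 0.0773.

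Among genes of oestrogen synthesis and of the FSH response, 2 of 14 rose and 0 fell, with a median of -0.08. The risers were Sult1e1 and Sgk1, a kinase induced by hormones, at 1.68 ± 0.307 (adjusted p = 0.034). Sgk1 lost its call in 8 fits without 1 array, which left out any 1 knockout array but PMSG replicate 2, wild-type PMSG replicate 2, or wild-type hCG replicate 1 or 3, with an adjusted p of up to 0.0995. Fshr, the FSH receptor, differed by -0.60 and did not pass the test. Hsd17b1, which reduces oestrone to oestradiol, lay between 0.08 and 0.12 after PMSG and between -0.07 and 0.00 after hCG (-0.12 ± 0.325, adjusted p = 0.887). Cyp19a1 and Lhcgr were not analysed here.

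C-type natriuretic peptide, made by mural granulosa cells, keeps the oocyte in meiotic arrest through cGMP. Of 13 genes of this system 2 rose and 0 fell, with a median of -0.03: Prkg2 and Npr3. Npr3, the receptor that clears natriuretic peptides, read -0.29, -0.73 and -0.44 after PMSG and 5.84, 5.16 and 5.15 after hCG. All hCG arrays lay more than 5 units above the PMSG arrays and the rise was 5.87 ± 0.25 (adjusted p = 2.96e-06). Nppc, the peptide itself, differed by -0.14 ± 0.917, and Npr2, its receptor, by -0.71. Neither passed the test.

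Other large rises belong to none of these lists. Nts, the peptide neurotensin, read -4.77, -5.55 and -4.85 after PMSG and 4.77, 5.58 and 5.73 after hCG, with no array between. It rose by 10.42 ± 0.31 (adjusted p = 2.68e-07). F3, tissue factor, which starts blood clotting, read -1.33, -2.15 and -1.57 after PMSG and 4.91, 3.88 and 3.89 after hCG, a rise of 5.91 ± 0.353 (adjusted p = 3.42e-05). Chst15, a sulfotransferase of chondroitin sulfate, rose by 5.69 ± 0.252 (adjusted p = 3.99e-06), from values of -3.08 to -2.53 to values of 2.67 to 3.12. From the lists of signalling and metabolism, Egln3, an oxygen-sensing prolyl hydroxylase, rose by 5.67 ± 0.501 (adjusted p = 0.000471) and was the only called gene of 15 in the angiogenesis and hypoxia list (median 0.26, 2 genes without knockout hCG replicate 1). Sfrp2, a secreted WNT inhibitor, rose by 5.33 ± 0.251 (adjusted p = 6.24e-06). Fzd7, a WNT receptor, rose by 1.12 ± 0.123 (adjusted p = 0.00192). With them 2 of 16 WNT genes rose, or 4 without knockout hCG replicate 1, and 0 fell.

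The DNA just upstream of the largest rises was read for letters bound by the factors above, because AP-1, CREB, NR4A and RUNX proteins are the known nuclear endpoints of the LH signal. Windows of 300 bases, from 250 before to 50 after the start, came from the RefSeq table of build GRCm38.p6, which holds 12 windows for 11 of the 15 genes that rose most and 11 windows for 8 of the 10 falls. The AP-1 letters TGANTCA, sought on both strands, stand in 3 of the 12 windows (25.0%), in 0 of the 11 windows of the falls, in 9.54% of the 262 windows of all genes that rose and in 6.38% of the 18109 windows of all measured genes. Those 3 genes are F3, Nts and Tnfaip6, and the 250 bases before the start of each are printed because they show where the letters lie. Capitals mark the AP-1 letters, as found in F3 at chr3:121723287-121723536 (plus strand; 135 and 146 bases before the start), Nts at chr10:102490419-102490668 (minus strand; 207 bases before) and Tnfaip6 at chr2:52037863-52038112 (plus strand; 142 bases before).
F3: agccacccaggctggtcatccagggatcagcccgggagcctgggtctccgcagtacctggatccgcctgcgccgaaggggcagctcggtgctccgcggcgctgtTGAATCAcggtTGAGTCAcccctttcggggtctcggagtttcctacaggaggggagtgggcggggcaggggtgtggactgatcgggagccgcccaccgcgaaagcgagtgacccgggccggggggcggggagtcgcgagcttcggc
Nts: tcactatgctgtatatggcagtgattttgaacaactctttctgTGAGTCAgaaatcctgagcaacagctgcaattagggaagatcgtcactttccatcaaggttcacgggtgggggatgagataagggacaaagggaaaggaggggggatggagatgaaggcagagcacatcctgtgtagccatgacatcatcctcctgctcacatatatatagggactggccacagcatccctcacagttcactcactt
Tnfaip6: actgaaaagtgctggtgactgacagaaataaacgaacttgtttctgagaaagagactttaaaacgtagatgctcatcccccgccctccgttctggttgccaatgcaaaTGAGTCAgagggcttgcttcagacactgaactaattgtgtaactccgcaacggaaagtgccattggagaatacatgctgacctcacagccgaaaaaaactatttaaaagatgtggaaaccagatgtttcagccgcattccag
The palindromic cAMP response element TGACGTCA is in 0 of the 12 windows, in 3.05% of the windows of all genes that rose and in 2.49% of those of all measured genes. The NR4A letters AAAGGTCA are likewise in 0 of 12 (0.382% and 1.28%), and the RUNX letters TGTGGT are in 1, that of Ptgs2 (8.33%, against 13.0% and 13.7%). CCAAT, in 4 windows (33.3%, against 35.9% and 37.4%), is in those of Epgn, Npr3, Pgr and Tnfaip6. A match is a description of letters and not of binding, and no match says only that the letters are not in this window.

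The falls were smaller than the rises, and the named falls lost their calls more easily than the 15 largest rises. Igfbp1, a binding protein of insulin-like growth factors, read 2.05, 2.36 and 2.02 after PMSG and 0.10, 0.05 and 0.31 after hCG. The groups were well apart and the change was -1.99 ± 0.333 (adjusted p = 0.0222). Cyp26b1, which degrades retinoic acid, read 1.44, 1.11 and 1.02 after PMSG and 0.02, 0.18 and 0.01 after hCG. Its change of -1.12 ± 0.105 had the smallest adjusted p of the named falls (0.000677). Pdk4, a kinase that shuts off pyruvate oxidation, read -0.38, -1.26 and -0.57 after PMSG and -2.49, -2.25 and -2.15 after hCG (-1.56 ± 0.268, adjusted p = 0.0249). Grb14, an adaptor that inhibits insulin receptor signalling, read -0.39, -0.51 and -0.40 after PMSG and -2.05, -2.00 and -1.23 after hCG (-1.33 ± 0.246, adjusted p = 0.037). In both genes every hCG array lay below every PMSG array. Etl4 fell by 1.86 (adjusted p = 0.0203), Rnf144b, a ubiquitin ligase, by 1.72 (0.0313), Lockd, a long non-coding RNA, by 1.47 (0.0153), Tvp23a by 1.06 (0.00245), Thap3 by 1.06 (0.0153) and Meak7 by 1.05 (0.0277).

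Removing single arrays tested how firm these falls are. None of the 10 was called under every alternative, whereas all 15 of the largest rises were. Those rises were of 5.69 units or more, so this does not compare the directions at like size. Named rises of 1 to 2 units varied over the 12 fits without 1 array. Cyp51 lost its call in 10, Sgk1 in 8, Cyp11a1 and Cited4 in 6, and Spred1 and Flrt3 in 4. Spry2 lost it in 2, and Adamts1, Slc2a1 and Fzd7 in 0. Cyp26b1 and Tvp23a were called whichever array was left out. Without knockout hCG replicate 2 the calls of Igfbp1, Etl4, Rnf144b, Pdk4, Lockd, Grb14 and Meak7 were lost, with adjusted p of 0.0712 for Lockd, 0.0905 for Igfbp1 and 0.152 for Grb14. Igfbp1 was also lost without any 1 of the other 5 knockout arrays. Etl4 lost its call also without knockout PMSG replicate 1 or 3 or hCG replicate 1, and Pdk4 without these 3 or hCG replicate 3. Thap3 lost its call without knockout PMSG replicate 1 or 3 (0.054) or hCG replicate 1, and Lockd without hCG replicate 3. Meak7 was lost too without knockout PMSG replicate 2, hCG replicate 1 or 3 or wild-type PMSG replicate 2. Rnf144b and Grb14 each lost their call in 9 of the 12 fits.

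Cell division, metabolism and stress lists held few or no called genes. Of 25 replication and mitosis genes 0 passed in either direction, although 21 lay below 0, with a median of -0.24. None of the 16 G1 cyclins and CDK inhibitors was called (median -0.03, 1 without knockout PMSG replicate 1), and neither was any of 16 genes of the unfolded protein response (0.03). Slc2a1, the glucose transporter GLUT1, rose by 1.18 ± 0.159 (adjusted p = 0.00637). It was the only gene of 16 in glycolysis called at the probe set read here (median -0.31). A further probe set of Slc2a3, of the same list, rose by 1.865 in the knockout (limma adjusted p = 0.000605) and differed by 0.0994 in wild type. In the TGF-beta superfamily, 0 of 15 activin, inhibin and follistatin genes (median 0.15) and 0 of 15 BMP and AMH genes (median 0.39, 1 without wild-type PMSG replicate 1) were called. For Id2, of the BMP and AMH list, a further probe set that was not the one read rose by 1.45 (limma adjusted p = 0.0285). Fst, which traps activins, differed by 0.21 and Inhbb, an activin subunit, by -0.49. None of 10 hedgehog genes was called (median -0.23). Aard was the only 1 of 15 granulosa and Sertoli fate factors to rise (3.05 ± 0.499, adjusted p = 0.0193). It lost that call without knockout PMSG replicate 1 or 3 or hCG replicate 2 or 3. Il6 was the only 1 of 14 genes of the IL-6 family and STAT3 signalling (median 0.63, 2 genes without wild-type PMSG replicate 1, knockout PMSG replicate 2 or knockout hCG replicate 1). Osmr, a receptor of that family, had 3.26 with an adjusted p of 0.0826.

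Other probe sets of the named genes did not always follow. Of the 60 named genes called in the knockout 34 have further probe sets, and in 19 of them at least 1 of these was called in the same direction. In the other 15 none was. The 5 further probe sets of Etl4 gave -0.49 to -0.05, the 2 of Rnf144b -0.48 and -0.19, and that of Grb14 -0.40. In wild type those of Rnf144b gave -1.07 and -1.92 and that of Grb14 -1.07. A further probe set of Prkg2 gave -0.03 in the knockout and 5.07 in wild type. The single further probe sets of Egr3, Spry2, Pde4d, Cited4 and Fzd7 gave -0.01, -0.03, -0.03, -0.02 and -0.05. In wild type they were as flat, between -0.01 and 0.03, so they followed the response of neither genotype. Those of Ptgfr lay between 0.10 and 3.38, and that of Egln3 gave 2.94, without passing the test.

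**Figure D2:**
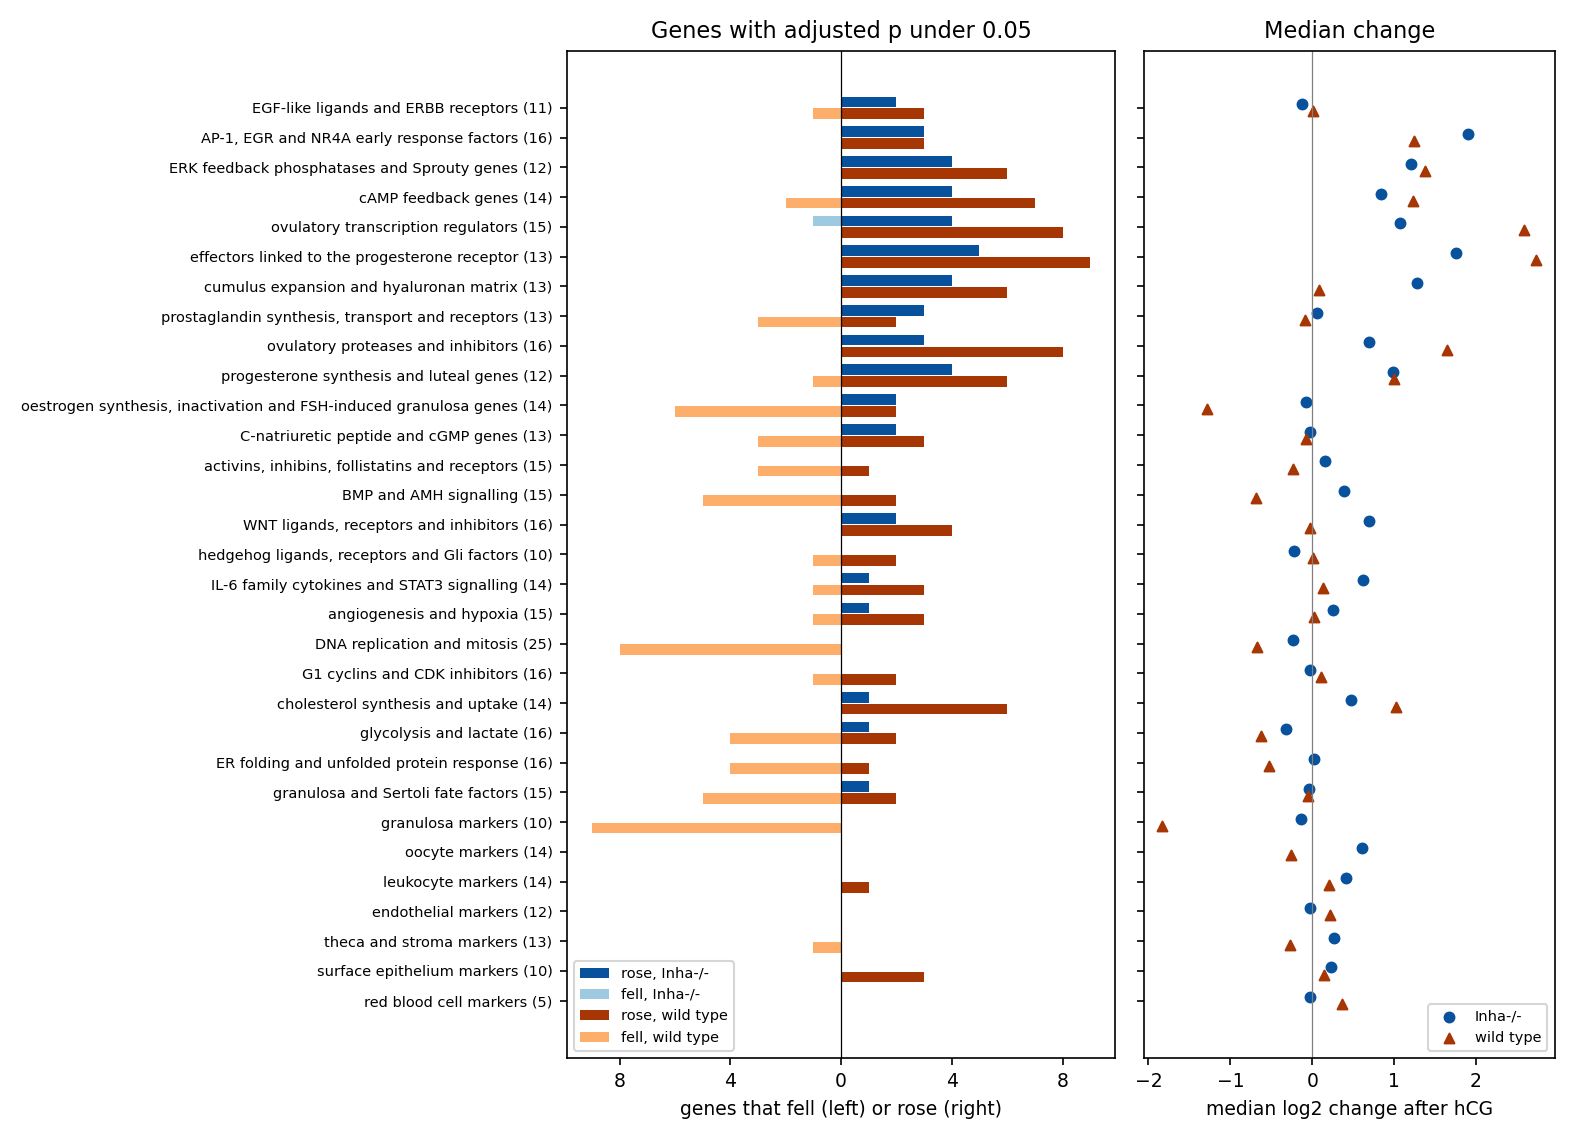
Number of genes of each list that rose or fell after hCG (adjusted p under 0.05) and the median log2 change of the list, for the knockout and for wild type. In the knockout the called members of the lists rose in all but Pparg of the ovulatory regulators, while in wild type the granulosa markers hold 9 falls and replication 8.

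Wild-type cells given the same hormones changed in many more genes: 1153 rose (6.34%) and 1299 fell (7.14%). The responses shared their rises. Of the 237 genes that rose in the knockout, 187 also rose in wild type, which is 78.9% of the former and 16.2% of the latter, and 232 of the 237 had a wild-type change above 0. The medians of these 237 genes were 2.21 in the knockout, where they were chosen, and 2.22 in wild type. Falls were shared less fully in number, with 11 genes, 44.0% of the 25 and 0.847% of the 1299. Genes chosen for their response in wild type had a smaller median change in the knockout: 0.49 against 1.58 for the 1153 that rose and -0.28 against -1.19 for the 1299 that fell. Of these, 999 lay above 0 and 1103 below 0 in the knockout. As a description over 18193 genes, which are not independent, the changes in the 2 genotypes correlated with r = 0.617. Among the fits without 1 array, the wild-type counts were lowest without wild-type hCG replicate 3, at 741 rises and 622 falls, and the falls numbered 792 and 734 without wild-type PMSG replicates 1 and 2.

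The difference between the responses, knockout minus wild type, was tested as the interaction of genotype and hCG. It was positive in 44 genes (0.242%) and negative in 153 (0.841%). Of the 153, 150 had risen in wild type. In 130 of them the knockout change was not called, with a median of 0.10 against 2.72 in wild type. The medians of these 130 genes by array were -0.06, -0.16 and -0.03 after PMSG and -0.01, 0.01 and -0.01 after hCG in the knockout, and 2.08, 2.04 and 2.74 after hCG in wild type, where PMSG arrays lay at -0.11 to -0.06. All 6 knockout arrays lay near 0. A further 20 rose in both genotypes but less in the knockout (medians 2.35 and 4.91). Of the 44 positive genes 32 had fallen in wild type and 13 rose in the knockout. The interaction rests on the same arrays as the responses, so these counts describe it and do not add to it. All 44 and all 153 kept their sign within the early arrays alone. These arrays are among those on which the genes were called, so this is no independent test of the sign. The late arrays hold no wild-type PMSG array. The counts ranged widely with single arrays. They were 242 positive and 242 negative without wild-type hCG replicate 2, and between 19 and 25 positive and between 78 and 99 negative without wild-type PMSG replicate 2 or 3, knockout PMSG replicate 3, or knockout hCG replicate 2 or 3. Without both arrays of unlike serial number 80 were negative.

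**Figure D3:**
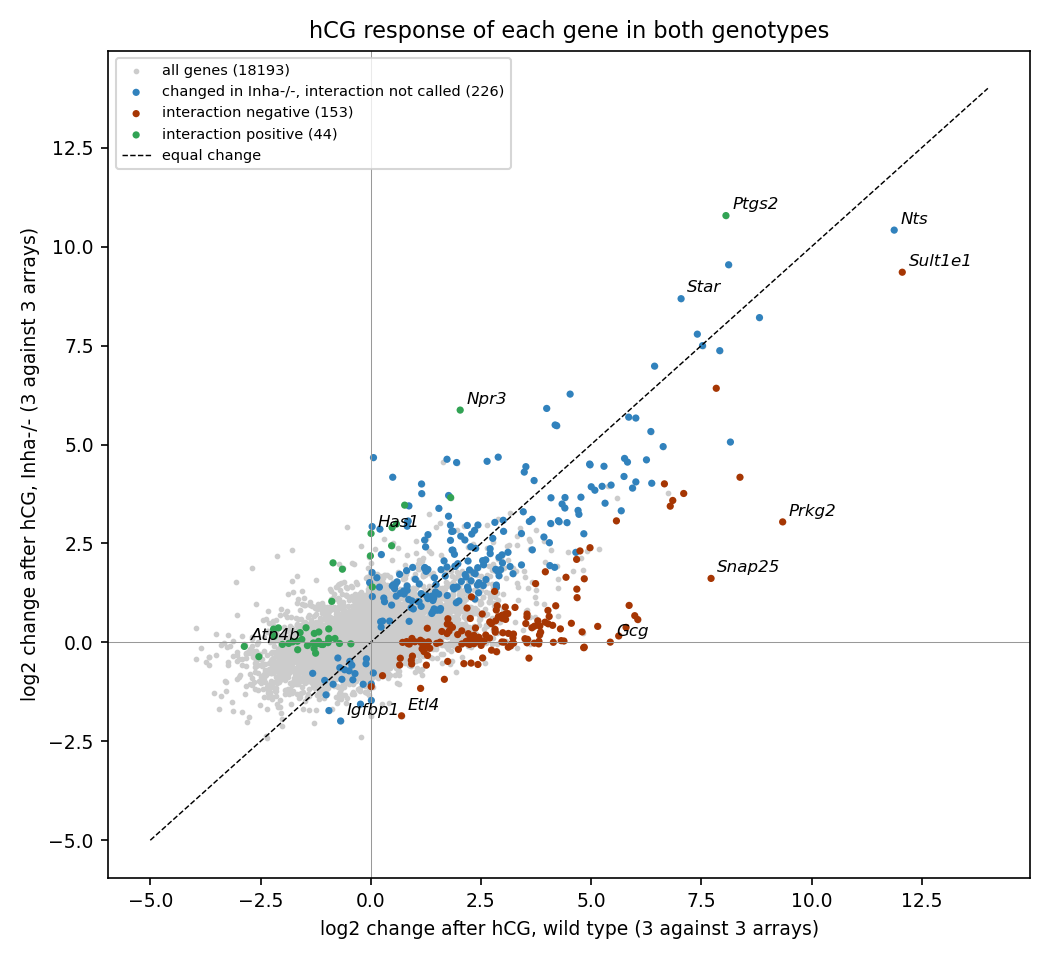
Change after hCG in log2 units in wild type (horizontal axis) and in the knockout (vertical axis) for 18193 genes in grey, with genes changed in the knockout and no called interaction (226), negative interactions (153) and positive interactions (44) in colour; the dashed line marks equal change. Most negative interactions lie along the horizontal axis, with a wild-type rise and a knockout change near 0.

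**Figure D4:**
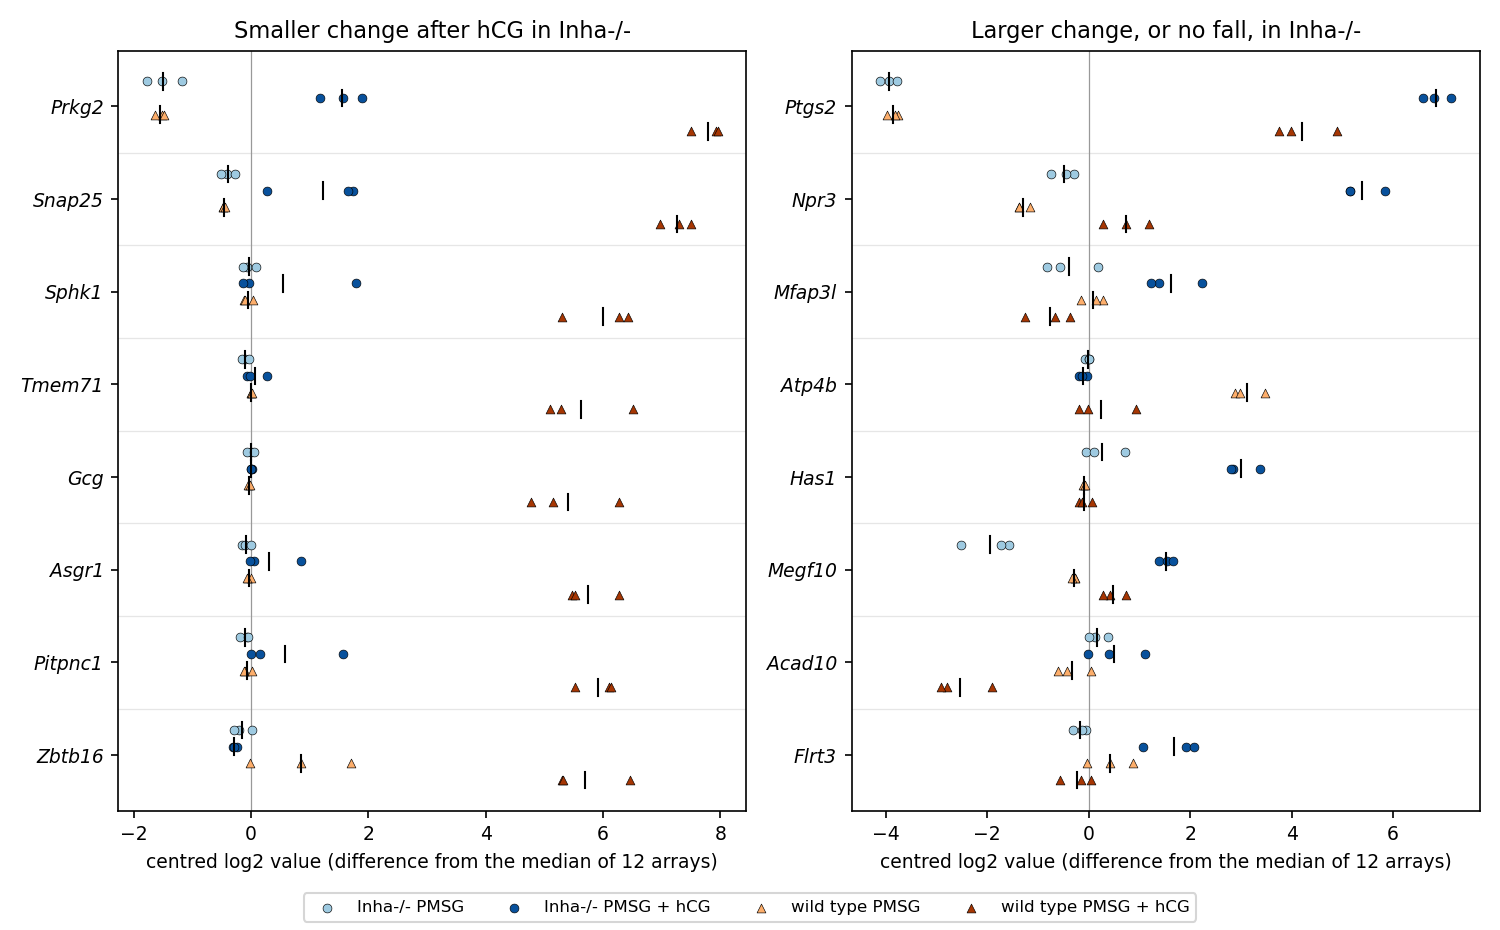
Centred log2 value of the 8 largest negative and 8 largest positive interactions on the 12 arrays, by group. For Gcg and Tmem71 only the 3 wild-type hCG arrays lie above 4, and for Has1 only the 3 knockout hCG arrays lie above 2.

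The largest negative interaction was that of Prkg2, which rose by 3.04 in the knockout and by 9.34 ± 0.208 in wild type. Its wild-type arrays read -1.53, -1.64 and -1.49 after PMSG and 7.93, 7.49 and 7.96 after hCG. Wild-type hCG arrays thus lay about 6 units above the knockout ones, and the interaction was -6.30 ± 0.294 (adjusted p = 5.34e-05). Snap25 read 7.29, 6.97 and 7.51 after hCG in wild type, where it rose by 7.72, and its interaction was -6.10 ± 0.472 (adjusted p = 0.00077). Sphk1, which makes sphingosine 1-phosphate, rose by 6.06 in wild type against 0.58 in the knockout (interaction -5.48 ± 0.672, adjusted p = 0.00737). Gcg, the glucagon precursor, read 5.14, 4.78 and 6.27 after hCG in wild type and within 0.07 of 0 on every knockout array (-5.43 ± 0.422, adjusted p = 0.00077). Asgr1, a liver lectin receptor, Pitpnc1, a phospholipid transfer protein, and Tmem71 likewise rose in wild type and were not called in the knockout, with interactions of -5.41, -5.32 and -5.46. Zbtb16, a transcription repressor of the zinc finger family, rose by 4.84 in wild type and differed by -0.12 in the knockout (-4.97 ± 0.591, adjusted p = 0.00674). Under quantile normalization its call was lost. Cited4 rose by 4.84 in wild type, and the interaction was -3.24 ± 0.388 (adjusted p = 0.00694). Fzd1, a WNT receptor, rose by 4.68 in wild type against 1.13 in the knockout, where it was not called (-3.55 ± 0.343, adjusted p = 0.00212). Npr1, the receptor of atrial natriuretic peptide, had 3.11 and 0.73 (-2.38 ± 0.347, adjusted p = 0.017). Gli3, an effector of hedgehog signalling, had 2.82 and 0.33 (-2.49 ± 0.317, adjusted p = 0.00869). Sult1e1 rose in both, by 12.06 in wild type (-2.70 ± 0.359, adjusted p = 0.0109), and so did Epgn, by 7.84 (-1.42 ± 0.206, adjusted p = 0.017). Edn2, endothelin 2, an ovulatory vasoconstrictor, rose by 1.57 in wild type and stayed at 0.00 in the knockout. Its interaction of -1.57 ± 0.244 (adjusted p = 0.0235) was lost in 7 fits without 1 array: wild-type PMSG replicate 2 or 3, knockout PMSG replicate 1 or 3, wild-type hCG replicate 3, or knockout hCG replicate 2 or 3.

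Positive interactions held genes that rose more in the knockout and genes that fell in wild type alone by the test. Npr3 read -1.36, -1.37 and -1.15 after PMSG and 1.19, 0.29 and 0.73 after hCG in wild type, a rise of 2.03 ± 0.25 against 5.87 in the knockout (interaction 3.84 ± 0.354, adjusted p = 0.0016). Ptgs2 rose in wild type from -3.76, -3.81 and -3.97 to 4.89, 3.98 and 3.76, or by 8.06 ± 0.264. PMSG arrays of the 2 genotypes overlapped while the knockout hCG arrays lay above all wild-type ones, and the interaction was 2.73 ± 0.373 (adjusted p = 0.0127). Without both arrays of unlike serial number this call was lost. Has1, a second hyaluronan synthase, read -0.06, 0.71 and 0.11 after PMSG and 2.84, 3.37 and 2.80 after hCG in the knockout, a rise of 2.75 ± 0.205 (adjusted p = 0.000167). In wild type it stayed between -0.19 and 0.06 on all 6 arrays, and the interaction was 2.74 ± 0.29 (adjusted p = 0.00359). Megf10, an engulfment receptor, read -1.57, -1.73 and -2.51 after PMSG and 1.38, 1.54 and 1.67 after hCG in the knockout. It rose by 3.47 ± 0.221 (adjusted p = 5.88e-05) against 0.77 in wild type (2.70 ± 0.313, adjusted p = 0.00606). Flrt3, an adhesion protein that binds FGF receptors, rose by 1.85 ± 0.3 in the knockout and differed by -0.64 in wild type (2.49 ± 0.424, adjusted p = 0.0328). Mfap3l rose by 2.01 ± 0.345 and differed by -0.86 (2.87 ± 0.488, adjusted p = 0.033). Of the fits without 1 array, 9 lost the interaction of Flrt3 and 8 that of Mfap3l, with adjusted p of up to 0.0867 (without wild-type PMSG replicate 3) and 0.0937 (without wild-type PMSG replicate 2). Atp4b, a subunit of the gastric proton pump, fell by 2.87 in wild type and differed by -0.10 in the knockout (2.77 ± 0.368, adjusted p = 0.0109). Acad10, a dehydrogenase of fatty acids, fell by 2.20 in wild type and differed by 0.34 in the knockout (2.54 ± 0.471, adjusted p = 0.0462), a call that all fits without 1 array but that without wild-type hCG replicate 2 lost. Ptger4 and Fdx1 also had larger knockout rises, 4.63 against 1.73 and 3.39 against 1.55, but their interactions had adjusted p of 0.125 and 0.0529. The rise of Fdx1 began lower in the knockout, with a PMSG mean of -3.16 against -0.81 in wild type. It did not end higher, with hCG means of 0.23 and 0.73.

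The falls also differed between genotypes in some genes. Cyp26b1 stayed between -0.14 and -0.01 on all 6 wild-type arrays, and its interaction was -1.13 ± 0.148 (adjusted p = 0.0104). Etl4 differed by 0.70 in wild type (-2.55 ± 0.433, adjusted p = 0.0327), and Pparg by 0.27 (-1.11 ± 0.198, adjusted p = 0.0405). Igfbp1, the largest fall in the knockout, differed by -0.68 in wild type, and for it no difference between the genotypes was called (adjusted p = 0.329).

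Genes that mark granulosa cells fell in wild type, and none of them passed the test in the knockout. Of the 10 granulosa markers 9 fell in wild type, with a median of -1.83, and 0 were called in the knockout, with a median of -0.14. By array their median in the knockout was 0.20, 0.48 and -0.17 after PMSG and -0.08, -0.03 and -0.01 after hCG, and in wild type it was -1.17, -0.85 and -2.33 after hCG. No interaction was called in any of the 10 (adjusted p of 0.0531 to 0.462, changes of 1.17 to 4.32 in favour of the knockout), so a difference of the responses in these genes did not pass the test. Foxl2, the factor that maintains granulosa cell identity, read 0.53, 0.92 and -3.04 after PMSG and -0.52, -0.08 and 0.08 after hCG in the knockout. PMSG replicate 3 lay far below the rest, and the groups overlapped. Inhbb differed by -0.49 in the knockout and -3.74 in wild type, Fshr by -0.60 and -1.91, and Nppc by -0.14 and -3.85, and their interactions had adjusted p of 0.325, 0.28 and 0.305.

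Markers of other cell types were not called in the knockout, but they differed between arrays. None of the markers of oocytes (14), leukocytes (14), endothelium (12), the surface epithelium (10), theca and stroma (13) or red blood cells (5) passed the test of the hCG response, with medians of 0.61, 0.41, -0.03, 0.23, 0.26 and -0.03. Without knockout hCG replicate 1 a single leukocyte marker rose. All 14 oocyte markers had a change above 0, but the list's median was -0.86 within the early arrays and 1.48 within the late ones. The median of the theca and stroma markers likewise was -0.24 and 0.26, and that of the granulosa markers -0.52 and 0.06. The oocyte markers' median by array was 0.83, 2.21 and 0.70 after PMSG and 0.57, 3.01 and 2.66 after hCG, so that hCG replicate 1 lay with the lower PMSG arrays. The median of the theca and stroma markers also put hCG replicate 1 below the other hCG arrays, at 0.43, 1.64 and 1.27 after PMSG and 0.56, 2.37 and 1.72 after hCG. The mean of the oocyte list ranged from 0.91 to 1.95 and from 0.48 to 2.73 in the 2 knockout groups, above the -1.58 to -0.49 of wild type. Which of the markers are at 0 cannot be read from centred values, and the part of these cell types in the response was not tested.

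**Figure D5:**
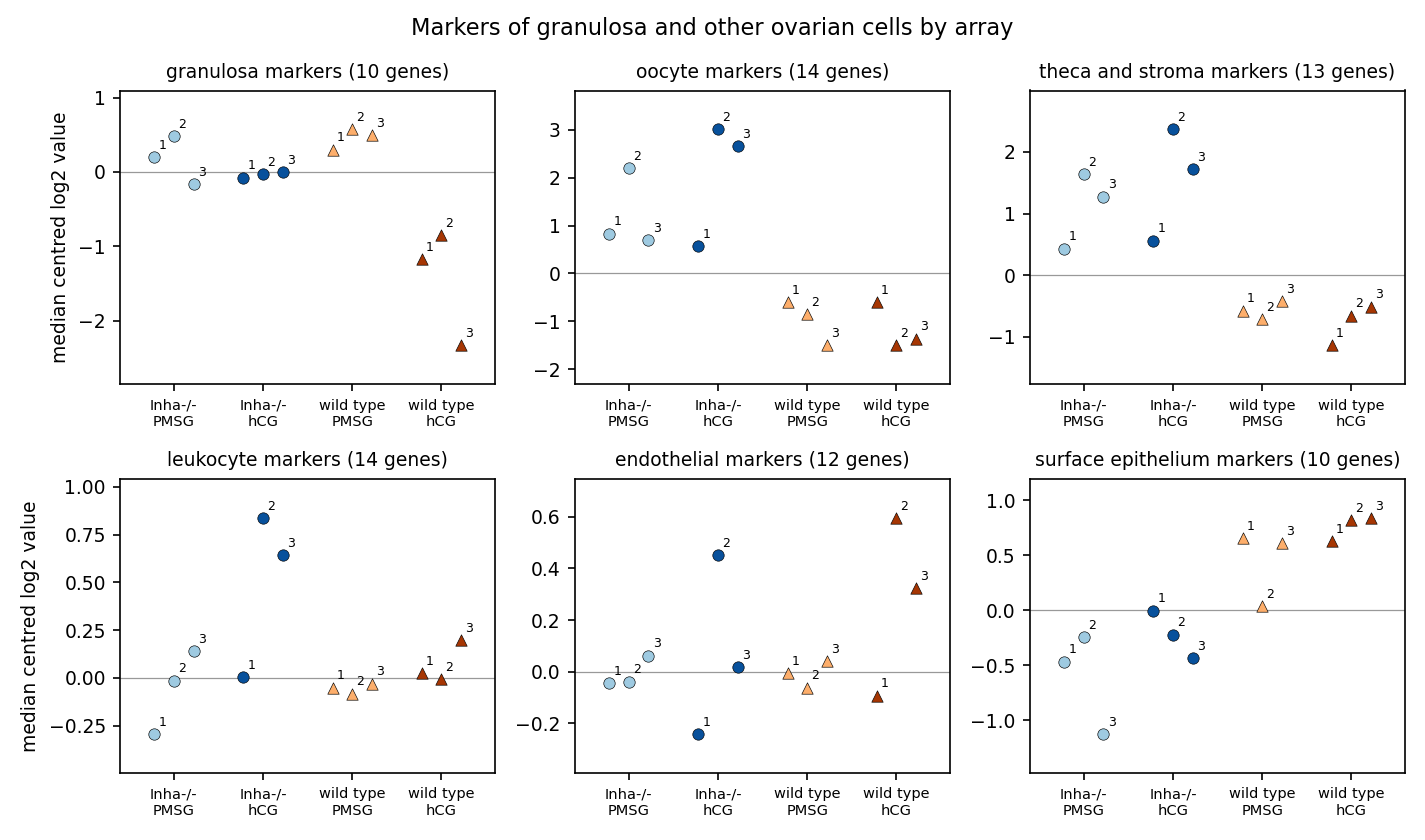
Median centred log2 value of each of 6 lists of cell type markers on the 12 arrays, by group, with the replicate number beside each point. Oocyte markers are higher on the knockout than on the wild-type arrays and spread most after hCG, and granulosa markers are lowest on the 3 wild-type hCG arrays.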

How the data were processed

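RNA of granulosa cells was measured on 12 arrays, 3 for each of 4 groups, mapped by title and labels. The authors deposited log2 values made with GCRMA, per the submitters' processing notes (its version is not given in the sources used here). In the file every probe set has a median of 0 over the arrays, a step no source states; the range of its values exceeds what natural logarithms of a 16-bit scan allow. No scaling was added: array medians lie between -0.0197 and 0.093. The table holds 0 columns of other samples.

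With limma 3.58.1 (R 4.3.3), 1 mean per group was fitted over all 12 arrays, with contrasts for the hCG response of each genotype and their interaction. Benjamini-Hochberg adjustment of p values ran over the 34945 non-control probe sets that name 1 gene; 932 name several, 9160 none and 64 are controls. A gene was read at the probe set of largest SD, and 9183 of 18193 genes have 1 probe set. On simulated data of 34945 probe sets, read at the contrast of the knockout response, the fit recovered 31% of changes of 1 log2 unit. Of changes of 2 units it recovered 69%, with 10 false among 110 calls. The median SD within a group was 0.195 for knockout PMSG arrays and 0.105 for wild-type PMSG arrays. Whether these rates hold at the spread of the knockout arrays was not tested.

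Named are Inha, up to 15 of the largest rises and falls that were called, at least 2-fold and without overlap, 8 interactions in each direction, called members and up to 4 leading members of 23 pathway and 8 marker lists (392 of 420 genes measured), and a panel of ovulatory genes (26 of 30). Genes outside this rule were named after their values were seen. The members and lists were chosen with earlier results of these data known. Same-numbered knockout arrays correlated by 0.071, -0.008 and -0.141 in their deviations, and those of the 2 genotypes by 0.171, 0.265 and 0.095 after PMSG and 0.208, -0.049 and 0.008 after hCG. Same-numbered wild-type PMSG and hCG arrays gave 0.162, 0.038 and 0.195, against -0.166 to 0.017 for unlike numbers. Between the 2 PMSG groups unlike numbers gave -0.193 to 0.018, so in both comparisons every same-numbered pair was higher. In the knockout unlike numbers gave -0.106 to 0.158, and between the 2 hCG groups -0.174 to 0.177. Not every same-numbered pair exceeded 0.1, so the numbers were not taken to pair samples, but a shared source in part of the arrays is not excluded. Replicates 1 and 2 of the 2 PMSG groups also share the first number of their array names, whose meaning is not stated. The 2 wild-type hCG arrays of late serial number likewise share a first number with each other. With this number as a random block, limma gave a consensus correlation of 0.573 between arrays of the same number. Wild-type rises and falls then numbered 717 and 437, against 1153 and 1299 in the main fit.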

Additional observations from a re-analysis of the deposited data

Results flagged for a closer look

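The results below stood out because the test of the difference itself, the interaction of genotype and hCG in limma, was called at an adjusted p under 0.05. Each value is the response of the knockout minus that of wild type in log2 units. Among genes that rose more in the knockout, Npr3 had 3.84, Mfap3l 2.87, Has1 2.74, Ptgs2 2.73, Megf10 2.70 and Flrt3 2.49. Atp4b (2.77) and Acad10 (2.54) fell in wild type and were not called in the knockout. For Atp4b the genotypes differed already after PMSG, with means of 3.11 in wild type and -0.01 in the knockout. Among genes that rose less in the knockout, or rose in wild type alone by the test, Prkg2 had -6.30, Snap25 -6.10, Sphk1 -5.48, Tmem71 -5.46, Gcg -5.43, Asgr1 -5.41, Pitpnc1 -5.32, Zbtb16 -4.97, Sult1e1 -2.70, Edn2 -1.57 and Epgn -1.42. Etl4 (-2.55) and Cyp26b1 (-1.13) fell in the knockout and were not called in wild type.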

How the results depend on the processing

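All 237 rises and 25 falls of the knockout kept their sign under every alternative run. In the fits that only left out arrays this was fixed, because the knockout groups did not overlap in these genes. With array weights it was fixed for the same reason. The knockout arrays alone, a robust form of the moderated variance and the filter on low spread leave each gene's change as it was. For the sign these fits are therefore no test. The balance of rises and falls turned in the knockout with array weights, and in wild type (1153 and 1299) with quantile normalization (1056 and 977), with the random block and without some arrays. Several list medians near 0, and those of the oocyte and theca markers, changed sign within the early or late arrays. Of the 60 named genes called in the knockout, 27 were called under every alternative, 29 lost their call with the 6 knockout arrays alone, 19 without both arrays of unlike serial number and 12 with the random block. Rises in the knockout numbered 162 to 279 without 1 array, 101 with the 6 knockout arrays alone and 2068 with array weights (weights of 0.125 to 7.64); rises of at least 2-fold numbered 152 to 247, 100 and 1086 under the same changes. Falls numbered 9 to 53 without 1 array, 12 with the knockout arrays alone, 42 with the mean of a gene's probe sets, 2735 with array weights, 70 after quantile normalization, 15 with the first number of the array names as a random block, 39 with the early or late serial number as a covariate and 45 without both arrays of unlike serial number. Falls of at least 2-fold numbered 2 to 30 without 1 array, 6 with the knockout arrays alone, 20 with the filter on low spread, 807 with weights, 39 after quantile normalization, 17 with the serial covariate and 22 without both arrays. Positive interactions numbered 19 to 242 without 1 array, 73 with the filter, 77 with the mean of probe sets, 1918 with weights and 29 with the random block. Negative ones numbered 78 to 242 without 1 array, 2019 with weights and 80 without both arrays. In wild type rises numbered 741 to 1227 without 1 array, 2703 with weights and 717 with the random block, and falls 622 to 1471, 3273 and 437. The cause of these shifts was not tested. With the replicate number as a fixed block 225 genes rose and 24 fell in the knockout, and 1147 rose and 1303 fell in wild type. In that fit 41 interactions were positive and 110 negative. Same-numbered arrays of the 2 genotypes correlated in their deviations by 0.095 to 0.265 after PMSG. Those of wild type correlated by 0.038 to 0.195 and those of the knockout by -0.141 to 0.071, so the pairing was neither established nor excluded. Leaving out both arrays was chosen after seeing the data. With 3 arrays a group and a median SE of 0.194, changes of 1 log2 unit were recovered in 31% of simulated cases, so a gene not called may have changed. Centred values give no signal over background, and the wild-type late arrays lack a PMSG array.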

Other observations

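Several further genes of the response act outside the lists above and were chosen after their values were seen. Cxcr4, the receptor of the chemokine CXCL12, rose in the knockout by 3.59 ± 0.187 (SE, limma adjusted p = 1.33e-05) and in wild type by 6.85, with an interaction of -3.27 ± 0.265 (adjusted p = 0.000867). Rnd3, a small GTPase that loosens actin fibres, rose by 3.76 in the knockout and 7.10 in wild type (interaction -3.34 ± 0.39, adjusted p = 0.00637). Nmu, the peptide neuromedin U, rose by 4.17 and 8.38 (-4.20 ± 0.626, adjusted p = 0.0191), and Lepr, the leptin receptor, by 4.01 and 6.66 (-2.66 ± 0.479, adjusted p = 0.0417). In all 4 genes the 3 knockout hCG arrays lay above the 3 knockout PMSG arrays. Epb41l3, a protein that links membrane to cytoskeleton, rose more in the knockout, by 3.66 against 1.81 (1.85 ± 0.282, adjusted p = 0.0217).

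In a second set the interaction was not called, which does not show that the responses were alike. Tnfrsf12a, the receptor of the cytokine TWEAK, rose by 5.48 ± 0.23 in the knockout (adjusted p = 2.89e-06) and 4.22 in wild type. Slc7a11, the cystine transporter, rose by 4.19 ± 0.3 (adjusted p = 0.000135) and 5.75, and Srxn1, which repairs oxidised peroxiredoxins, by 4.09 ± 0.339 (adjusted p = 0.000313) and 3.71. The interactions of these 3 genes were not called (adjusted p = 0.142, 0.168 and 0.866). Ch25h, which makes 25-hydroxycholesterol, read -0.03, -0.43 and -0.30 after PMSG and 2.45, 4.41 and 4.89 after hCG in the knockout, a rise of 4.17 ± 0.497 (adjusted p = 0.00297). In wild type it differed by 0.50, and the interaction had an adjusted p of 0.0514. Plk2, a kinase of the polo family, rose by 4.67 ± 0.655 (adjusted p = 0.00818) and differed by 0.06 in wild type (interaction adjusted p = 0.0623); its change was 6.65 within the early arrays and 3.13 within the late ones.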
